A study of Mus musculus with 4 samples.

Results

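The calcium pumps and sodium-calcium exchangers were followed here as 9 genes: the sarcoplasmic and endoplasmic reticulum pumps *Atp2a1*, *Atp2a2* and *Atp2a3*, the plasma membrane pumps *Atp2b1*, *Atp2b2* and *Atp2b4*, and the exchangers *Slc8a1*, *Slc8a2* and *Slc8a3*. The genes were chosen by name, and each was given a window made of its annotated body and the 25 kb upstream of its 5′ end on mouse assembly mm9. Every region with H3K27ac enrichment whose centre fell in a window was taken, which gave 14 of 12566 regions in one heart library and 19 of 22981 in the other, 33 in all.

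The series compared H3K27ac, acetylation of lysine 27 on histone H3, by chromatin immunoprecipitation and sequencing in whole hearts of 7-month-old *mdx* mice. These mice lack dystrophin and model Duchenne muscular dystrophy, and both groups carried the dystrophin mutation and floxed alleles of IKKβ, the kinase that activates NF-κB. The *mdx* HRTΔIKKβ hearts also carried a Myh6-cre transgene, which deletes IKKβ in cardiomyocytes and leaves it in the other cells of the heart, whereas the control, *mdx* IKKβf/f littermates, had no cre. There was 1 library per genotype, so no difference between genotypes had a replicate check and no test was made. The intervals given are exact 95% limits, Poisson for counts and Clopper-Pearson for shares, and cover counting error only, since sequenced reads without molecular identifiers and neighbouring regions are not independent molecules.

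Calcium that enters the cytosol of a cardiomyocyte at each beat is removed again by these proteins. SERCA pumps, encoded by the *Atp2a* genes, use ATP to return calcium to the reticulum, PMCA pumps, encoded by the *Atp2b* genes, use ATP to move it out across the plasma membrane, and NCX exchangers, encoded by the *Slc8a* genes, move it out in return for sodium. In heart muscle the main reticulum pump is the product of *Atp2a2* and the main exchanger is NCX1, the product of *Slc8a1*. H3K27ac is a mark of active promoters and enhancers.

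The regions of *Slc8a1* are shown first, because the question put to these data concerned this gene and its paralogs, and 2 regions of *Atp2b2* follow, because that gene held most of the regions counted. Each is the middle 300 bases of the region on the plus strand of mm9, and capitals mark a match to AGATAA, the core of the GATA factor motif, on either strand.
*Slc8a1*, *mdx* IKKβf/f, intron 8, chr17:81817091-81817390: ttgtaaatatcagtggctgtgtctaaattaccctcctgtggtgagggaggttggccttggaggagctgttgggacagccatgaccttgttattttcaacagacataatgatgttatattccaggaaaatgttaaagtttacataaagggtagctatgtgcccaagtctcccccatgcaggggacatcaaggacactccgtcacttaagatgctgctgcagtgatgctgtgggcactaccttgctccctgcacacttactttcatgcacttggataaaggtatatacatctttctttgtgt
*Slc8a1*, *mdx* HRTΔIKKβ, upstream, chr17:82068868-82069167: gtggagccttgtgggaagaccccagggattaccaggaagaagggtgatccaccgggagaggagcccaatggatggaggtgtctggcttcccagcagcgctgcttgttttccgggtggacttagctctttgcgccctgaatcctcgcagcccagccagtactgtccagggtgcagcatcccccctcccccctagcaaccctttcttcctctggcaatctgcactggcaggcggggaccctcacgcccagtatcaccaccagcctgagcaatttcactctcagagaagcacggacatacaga
*Slc8a1*, *mdx* HRTΔIKKβ, intron 1, chr17:81953637-81953936: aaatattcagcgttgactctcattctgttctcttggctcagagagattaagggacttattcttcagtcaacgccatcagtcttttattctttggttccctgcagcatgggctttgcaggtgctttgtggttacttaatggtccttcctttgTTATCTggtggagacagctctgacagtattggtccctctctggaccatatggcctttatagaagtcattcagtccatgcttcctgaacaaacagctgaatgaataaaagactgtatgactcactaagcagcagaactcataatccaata
*Atp2b2*, *mdx* IKKβf/f, upstream, the region with the highest peak score of that library in the window, chr6:114010855-114011154: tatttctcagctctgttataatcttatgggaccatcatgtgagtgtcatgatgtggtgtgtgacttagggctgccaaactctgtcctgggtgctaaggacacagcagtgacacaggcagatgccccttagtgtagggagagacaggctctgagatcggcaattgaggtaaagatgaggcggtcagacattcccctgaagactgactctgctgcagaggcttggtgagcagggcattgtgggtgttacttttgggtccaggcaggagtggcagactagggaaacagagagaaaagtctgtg
*Atp2b2*, *mdx* HRTΔIKKβ, intron 1, the region nearest to one of the other library, chr6:113969360-113969659: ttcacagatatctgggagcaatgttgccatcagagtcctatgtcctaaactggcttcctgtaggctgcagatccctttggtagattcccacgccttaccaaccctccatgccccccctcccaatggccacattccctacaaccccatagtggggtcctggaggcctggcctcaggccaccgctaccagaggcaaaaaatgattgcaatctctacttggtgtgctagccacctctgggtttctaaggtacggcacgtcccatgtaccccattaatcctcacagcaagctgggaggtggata

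The study concerned NF-κB, so each member region was also searched, in the 500 bp about its centre and on both strands, for the 10-letter NF-κB consensus. It was matched in 3 of 14 *mdx* IKKβf/f regions and in 2 of 19 *mdx* HRTΔIKKβ regions, where 5.32% and 5.35% of all regions of the 2 lists had a match. The 100 bases around each are shown on the plus strand of mm9, with the matched bases in capitals. In the *Atp2a3* region 2 matches overlap.
*Atp2a3*, *mdx* HRTΔIKKβ, upstream, chr11:72761577-72761676: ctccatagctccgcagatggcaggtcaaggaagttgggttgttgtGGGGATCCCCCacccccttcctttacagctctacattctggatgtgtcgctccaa
*Atp2b2*, *mdx* IKKβf/f, intron 1, chr6:113935336-113935435: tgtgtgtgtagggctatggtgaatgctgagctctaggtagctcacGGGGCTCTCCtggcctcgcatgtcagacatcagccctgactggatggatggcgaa
*Atp2b2*, *mdx* IKKβf/f, intron 3, chr6:113830450-113830549: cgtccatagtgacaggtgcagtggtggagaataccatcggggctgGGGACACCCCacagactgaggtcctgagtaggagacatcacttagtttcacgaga
*Slc8a2*, *mdx* HRTΔIKKβ, upstream, chr7:16713812-16713911: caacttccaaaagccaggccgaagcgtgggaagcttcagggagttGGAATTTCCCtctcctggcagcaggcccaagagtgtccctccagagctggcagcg
*Slc8a3*, *mdx* IKKβf/f, intron 2, chr12:82366936-82367035: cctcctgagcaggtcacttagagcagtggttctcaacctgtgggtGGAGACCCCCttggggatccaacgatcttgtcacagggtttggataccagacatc

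Of the 3 other motifs searched, AGATAA was present in 4 of 14 and 4 of 19 member regions, with 22.5% and 21.5% of all regions as the background. No member region matched the CTCF or the MEF2 consensus, which 0.191% and 4.37% of all *mdx* IKKβf/f regions and 0.213% and 3.87% of all *mdx* HRTΔIKKβ regions did. A match is a string of letters in a window and was not tested as a binding site.

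The 2 lists differed in size over the whole genome, and this bears on every count that follows. The *mdx* HRTΔIKKβ list held 1.83 times as many regions as the *mdx* IKKβf/f list, or 64.6% of all regions, from 62458751 against 57852347 sequenced tags. Regions were shallow in both, with a median peak score (read here as the tags in its densest stretch, a definition the sources used here do not give, and which can differ from its tag count by a few tags) of 31 in the control and 32 in *mdx* HRTΔIKKβ, just above the lowest scores that could be called, 29 and 30. Regions held 0.71% and 1.26% of the tags. Genes that define heart muscle did not stand out in these lists, as far as 10 genes can show: within 5 kb of a start site, 1 of 10 heart genes (*Ttn*) had a region in the control and 0 of 10 in *mdx* HRTΔIKKβ, and 0 and 1 of 10 genes that do not mark heart muscle (*Col1a1*, a fibroblast gene) had one, where all protein-coding genes gave 7.61% and 13.4%. The window of *Ikbkb*, the deleted gene, held 0 and 1 regions, which does not check the deletion, and how acetylation per cell and the share of cells that carry it contributed to any region cannot be told apart in whole hearts.

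**Figure D1:**
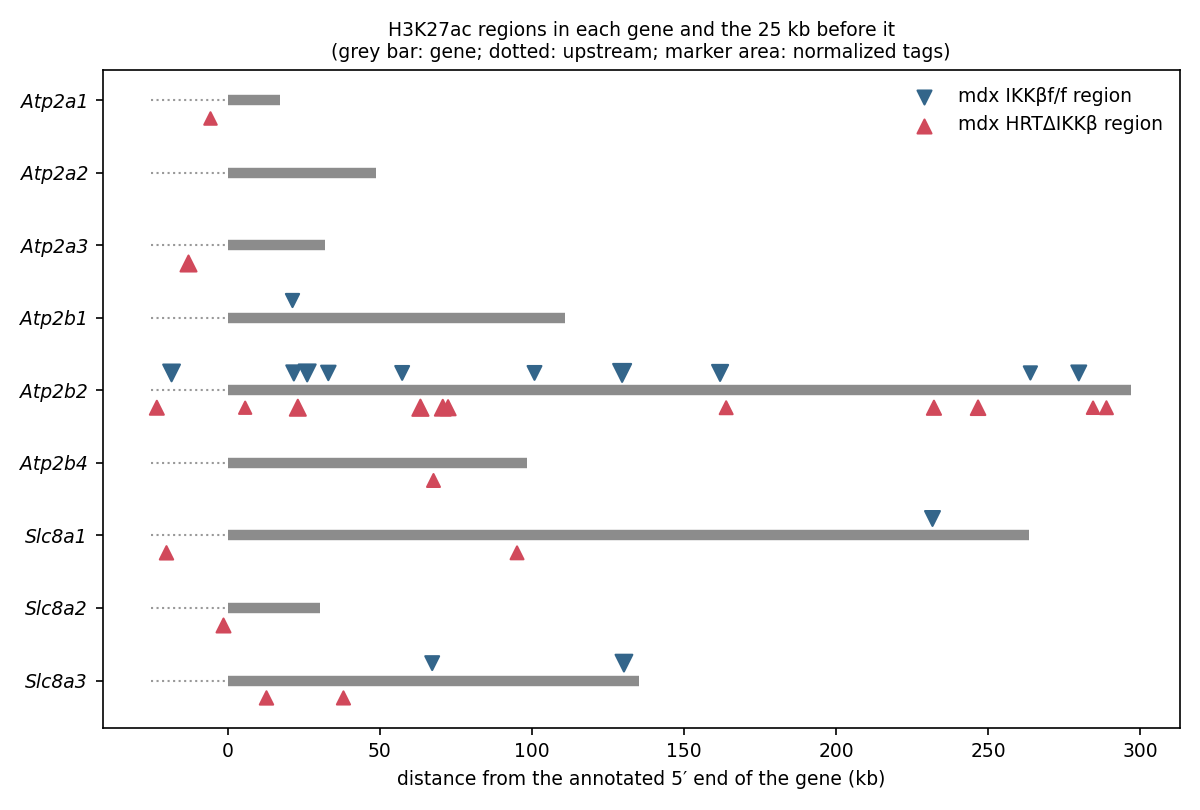
Position of every H3K27ac region in the 9 gene windows, in kb from the annotated 5′ end of the gene along the direction of transcription. Grey bars are gene bodies, dotted lines the 25 kb upstream, blue triangles above the bar are *mdx* IKKβf/f regions and red triangles below it *mdx* HRTΔIKKβ regions, with the marker's area set by the normalized tags; *Atp2b2* carries 10 and 11 regions and *Slc8a1* 1 and 2.

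H3K27ac regions were unevenly spread over the 9 genes. *Atp2b2* alone held 10 of the 14 *mdx* IKKβf/f regions and 11 of the 19 *mdx* HRTΔIKKβ regions, whereas *Slc8a1*, of nearly the same length, held 1 and 2 and the cardiac pump gene *Atp2a2* held 0 and 0. At least 1 region was found in 4 of 9 windows in *mdx* IKKβf/f (*Atp2b1*, *Atp2b2*, *Slc8a1* and *Slc8a3*) and in 7 of 9 in *mdx* HRTΔIKKβ (all but *Atp2a2* and *Atp2b1*). For all 22367 protein-coding genes windowed in the same way, these shares were 23.5% and 37.8%. More regions were counted in *mdx* HRTΔIKKβ than in *mdx* IKKβf/f at 6 of the 9 genes, against 29.6% of all genes, and 3 of the 9 had a region in both libraries, against 14.0%.

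Window length bears directly on such counts. Among the 3272 genes with a window of at least 100 kb, 51.3% had a region in *mdx* IKKβf/f, 68.6% in *mdx* HRTΔIKKβ, 42.9% in both, and 49.9% had more in *mdx* HRTΔIKKβ. The 5 long members, *Atp2b1*, *Atp2b2*, *Atp2b4*, *Slc8a1* and *Slc8a3*, gave 4, 4, 3 and 3 of 5 for the same 4 counts. Each gene was therefore set against the number of regions expected if the regions of its chromosome were spread evenly over its sequenced bases.

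By that measure, the 9 windows (1258 kb) were expected to hold 6.48 regions in the control and 12 in *mdx* HRTΔIKKβ. The ratio of counted to expected regions was 2.16 (1.18 to 3.62) and 1.59 (0.955 to 2.48), and windows of all protein-coding genes gave 1.03 and 1.07. The interval in *mdx* HRTΔIKKβ includes 1, and most of the regions counted in each library lay at *Atp2b2*. Leaving this gene out, a setting chosen after its count was seen, must lower the ratio. Then 4 and 8 regions remained against 4.97 and 9.14 expected, with ratios of 0.804 (0.219 to 2.06) and 0.875 (0.378 to 1.72).

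**Figure D2:**
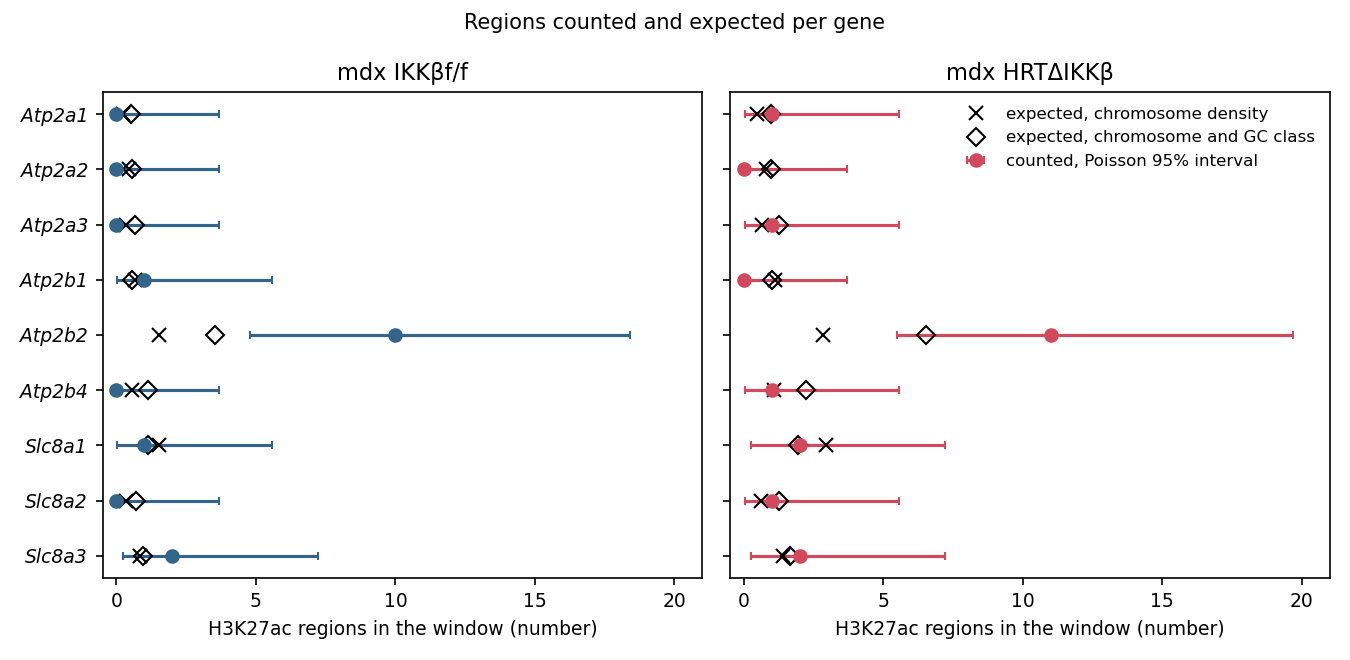
Number of H3K27ac regions in each gene window (circles, with exact Poisson 95% intervals) beside the number expected from the density of the chromosome (crosses) and from that density within classes of GC content (diamonds), for *mdx* IKKβf/f on the left and *mdx* HRTΔIKKβ on the right. Only at *Atp2b2*, among the 9 genes, does the interval lie above the cross in both libraries.

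The SERCA genes, the shortest of the 3 families, carried few regions, within counting error of the number expected for their length. Their 3 windows (172.8 kb) held 0 regions in the control and 2 in *mdx* HRTΔIKKβ, against 1.06 and 1.93 expected, and the *mdx* HRTΔIKKβ density was 1.16 per 100 kb (0.14 to 4.18). Within GC classes 1.76 and 3.2 regions were expected, and the *mdx* HRTΔIKKβ ratio was 0.625 (0.0758 to 2.26). Since so few were expected, the absence of a region in the control was within counting error.

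*Atp2a2* (ENSMUSG00000029467.8, chr5:122903531-122952183, minus strand), which encodes the SERCA2 pump of heart muscle, had no region in either library. Its window of 73.65 kb was expected to hold 0.463 and 0.807 regions, and a count of 0 allows up to 3.69. The count was therefore within counting error of its chromosome.

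*Atp2a1* (ENSMUSG00000030730.6, chr7:133589372-133606622, minus strand) encodes the pump of fast skeletal muscle. Its window of 42.25 kb held 0 regions in the control and 1 in *mdx* HRTΔIKKβ, at chr7:133612165-133612665, 5.79 kb upstream and inside the neighbouring gene *Sh2b1*. This region had 4.48 normalized tags per 10000000 (2.98 to 6.48) and a peak score of 30, the lowest score the caller accepted in that library. *Atp2a3* (ENSMUSG00000020788.9, chr11:72774671-72806546, plus strand), which encodes a reticulum pump of non-muscle cells, held 0 regions and 1, at chr11:72761437-72762102, 12.9 kb upstream. It was taller, with 7.36 normalized tags (5.39 to 9.82) and a peak score of 34, and holds the NF-κB matches printed above. Their nearest regions in the *mdx* IKKβf/f list lay 46.8 and 84.9 kb away, where the median for all *mdx* HRTΔIKKβ regions was 50.81 kb.

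The 3 PMCA genes followed here held 11 *mdx* IKKβf/f and 12 *mdx* HRTΔIKKβ regions in 581.3 kb, against 2.73 and 5.05 expected. All but 1 in each library were at *Atp2b2*. Within GC classes 5.24 and 9.75 were expected, with ratios of 2.1 (1.05 to 3.76) and 1.23 (0.636 to 2.15). *Atp2b1* and *Atp2b4*, the plasma membrane pump genes most widely expressed across tissues, had 1 region each, in opposite libraries.

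*Atp2b1* (ENSMUSG00000019943.8, chr10:98377786-98488777, plus strand) had 1 *mdx* IKKβf/f region and no *mdx* HRTΔIKKβ region, with 0.652 and 1.12 expected. The region, chr10:98398562-98399062, lay in intron 1, 21.03 kb from the 5′ end, with 5.01 normalized tags (3.36 to 7.20) and the lowest callable score, 29. Its 19.96-fold enrichment over input rested on 1 input tag. *Atp2b4* (ENSMUSG00000026463.10, chr1:135599255-135697618, minus strand) had none in the control and 1 in *mdx* HRTΔIKKβ, with 0.567 and 1.09 expected. That region, chr1:135629893-135630393 in intron 8, had 4.80 normalized tags (3.24 to 6.86) and a score of 31. Each of these genes thus differed between the genotypes by 1 region close to the calling threshold.

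*Atp2b2* (ENSMUSG00000030302.9, chr6:113695663-113992607, minus strand) encodes PMCA2, a pump best known from neurons and the hair cells of the inner ear. Its window of 321.9 kb held 10 (4.8 to 18.4) *mdx* IKKβf/f regions and 11 (5.49 to 19.7) *mdx* HRTΔIKKβ regions, with 1.51 and 2.84 expected. The counted-to-expected ratio was 6.62 (3.17 to 12.2) in the control and 3.88 (1.94 to 6.94) in *mdx* HRTΔIKKβ, the only intervals of the 9 genes that lay above 1. Density was 3.11 (1.49 to 5.71) and 3.42 (1.71 to 6.11) regions per 100 kb, so the gene did not share in the 1.83-fold difference between the lists as a point value, although its own intervals are wide.

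Base composition moved with this count. GC content was 50% over the *Atp2b2* window and 41.4% over chromosome 6, and when the expectation was taken within classes of GC content it rose to 3.52 and 6.52 regions. The ratio then was 2.84 (1.36 to 5.23) in the control and 1.69 (0.842 to 3.02) in *mdx* HRTΔIKKβ, where the interval includes 1. The part of GC content in the count was not tested beyond this. For the 9 genes together the same expectation gave ratios of 1.44 (0.786 to 2.41) and 1.07 (0.642 to 1.67).

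The regions of *Atp2b2* ran along the whole gene. In *mdx* IKKβf/f, 1 lay 18.4 kb upstream, 4 in intron 1 between 21.8 and 57.4 kb from the 5′ end, 1 in intron 2, 2 in intron 3, 1 in intron 11 and 1 on coding exon 17. In *mdx* HRTΔIKKβ, 1 lay 23.2 kb upstream, 2 in intron 1, 3 in intron 2 between 63.4 and 72.5 kb, and 1 each in introns 3, 7, 9, 20 and 21. None of the 10 overlapped any of the 11. Overlap with the other list was rare over the whole genome too, at 3.18% in the control and 1.74% in *mdx* HRTΔIKKβ. Its absence among so few regions therefore does not set *Atp2b2* apart. The nearest pair, in intron 1, had centres 1.31 kb apart (chr6:113970567-113971067 in *mdx* IKKβf/f and chr6:113969259-113969759 in *mdx* HRTΔIKKβ), and the next, in intron 3, 1.98 kb apart. In intron 1, 3 of the *mdx* IKKβf/f regions and both *mdx* HRTΔIKKβ regions also lie inside *Gm15083*, an overlapping annotated gene, so their assignment to *Atp2b2* is by position alone.

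The regions at *Atp2b2* were taller than most. In *mdx* IKKβf/f their normalized tags ran from 5.01 to 9.33 and their peak scores from 30 to 47, with a median score of 37 against 31 for the list. In *mdx* HRTΔIKKβ normalized tags ran from 4.32 to 7.52 and scores from 30 to 48, with a median of 38 against 32. Scores within 5 of the threshold made up 30.0% of these regions in the control and 45.5% in *mdx* HRTΔIKKβ, and 79.7% and 77.7% of all regions. Fold over input did not set them apart in the same way, with medians of 5.51 and 5.43 against 5.16 and 5. The 3 *mdx* HRTΔIKKβ regions with the highest fold, 10.01, 17.16 and 30.89, stood on 2, 1 and 0 input tags (0 set to 0.5), and none of the 10 *mdx* IKKβf/f regions reached 8-fold. Over the whole lists, 20.7% of *mdx* HRTΔIKKβ and 14.9% of *mdx* IKKβf/f regions reached it. Summed over regions, the window held 68.27 normalized tags over 5509 bp in the control and 64.48 over 5818 bp in *mdx* HRTΔIKKβ, or 12.4 and 11.1 per kb covered.

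**Figure D3:**
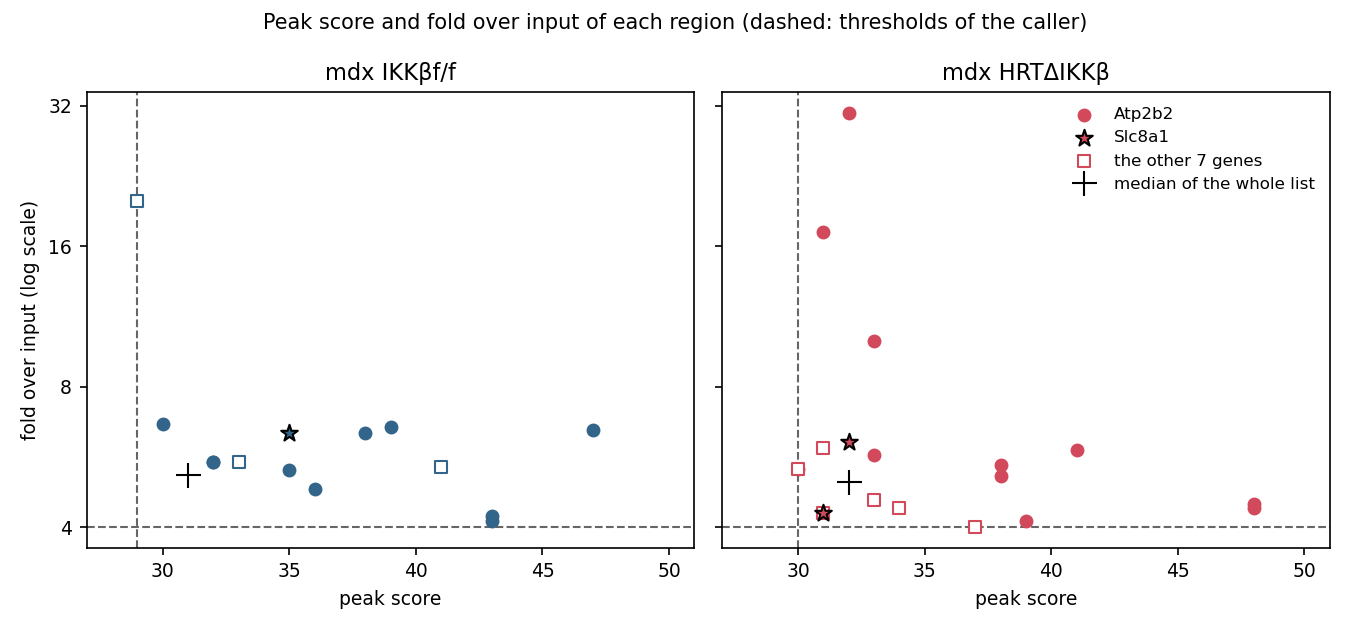
Peak score and fold over input (log scale) of every region in the 9 windows, for *mdx* IKKβf/f on the left and *mdx* HRTΔIKKβ on the right; filled circles are *Atp2b2*, stars *Slc8a1*, open squares the other 7 genes, the cross the median of the whole list and dashed lines the calling thresholds. *Atp2b2* circles reach scores of 47 and 48, the *Slc8a1* stars stay at 31 to 35, and in the right panel 1 star lies on the *Atp2b4* square at a score of 31 and 4.29-fold.

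Long genes with many regions were not confined to *Atp2b2*. Ranked by regions per 100 kb among the 3272 long windows, it stood at 27 in the control and at 100 in *mdx* HRTΔIKKβ, and 34 and 77 of these windows (itself included) held at least as many regions. It was 1 of 29 that did so in both libraries. The median long window held 1 region in each library.

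**Figure D4:**
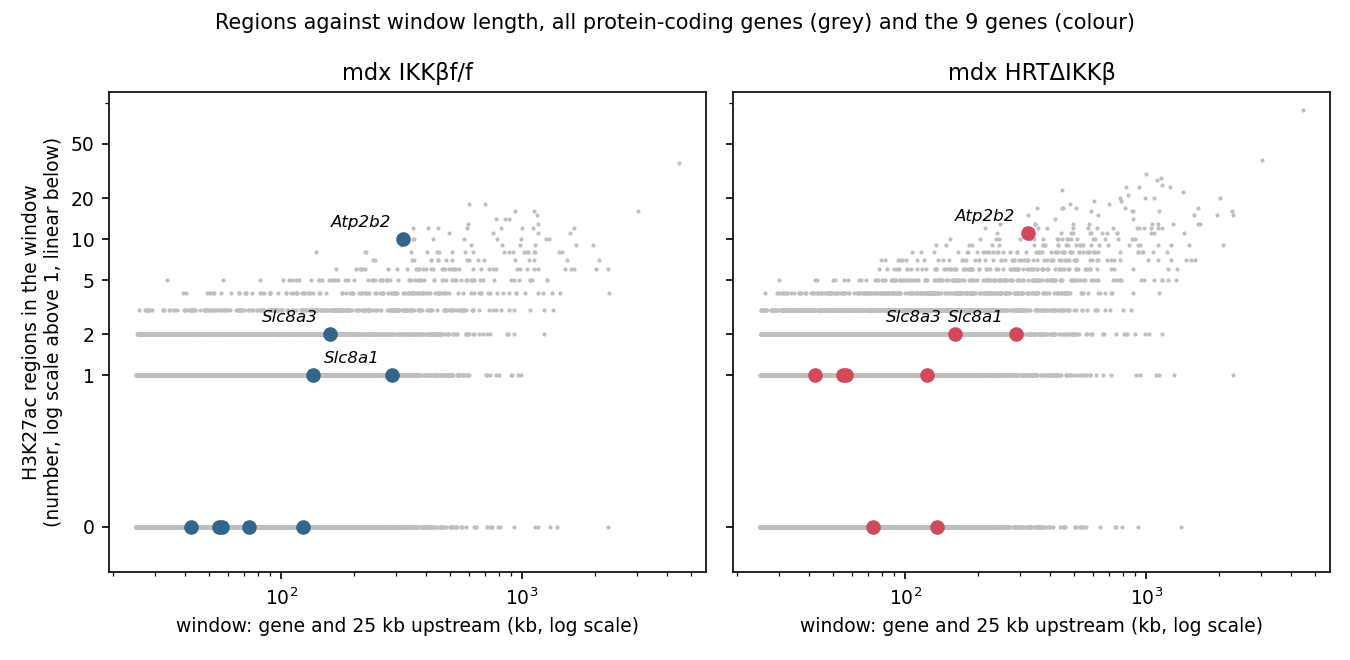
Number of H3K27ac regions (linear from 0 to 1 and logarithmic above) against window length in kb (log scale) for every protein-coding gene (grey) and the 9 genes (coloured), with *mdx* IKKβf/f on the left and *mdx* HRTΔIKKβ on the right. *Atp2b2* stands near the upper edge of genes of its length, and *Slc8a1*, with 1 and 2 regions, lies inside the grey cloud.

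The exchanger genes held 3 and 5 regions in 504.2 kb, against 2.70 and 4.99 expected, which put the family at the density of its chromosomes. Within it, the difference between the libraries was carried by *Slc8a1* and *Slc8a2*, at 1 region each.

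*Slc8a1* (ENSMUSG00000054640.7, chr17:81785359-82048947, minus strand), the gene of the cardiac exchanger NCX1, had 1 (0.0253 to 5.57) *mdx* IKKβf/f region and 2 (0.242 to 7.22) *mdx* HRTΔIKKβ regions in a window of 288.6 kb. The *mdx* IKKβf/f region, chr17:81816926-81817555, lay in intron 8, 231.7 kb from the 5′ end, with 6.40 normalized tags (4.50 to 8.82), a score of 35 and 6.37-fold enrichment. Of the *mdx* HRTΔIKKβ regions, chr17:82068767-82069267 lay 20.1 kb upstream with 5.12 normalized tags (3.50 to 7.23), a score of 32 and 6.10-fold enrichment. The other, chr17:81953536-81954036, lay in intron 1, 95.2 kb from the 5′ end, with 4.80 normalized tags (3.24 to 6.86), a score of 31 and 4.29-fold enrichment. The intervals of normalized tags of all 3 overlap, and the tallest was the one in the control. The nearest region of the other library lay 45.6 kb from the control region of *Slc8a1* and 252 and 137 kb from the others. Over the whole lists the median of this distance was 25.74 kb for *mdx* IKKβf/f and 50.81 kb for *mdx* HRTΔIKKβ regions.

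Set against its length, *Slc8a1* was not dense in either library. It had 0.347 (0.00877 to 1.93) regions per 100 kb in the control and 0.693 (0.0839 to 2.50) in *mdx* HRTΔIKKβ, and the medians over long windows were 0.213 and 0.73. It ranked at 1513 and 1704 of the 3272. Chromosome 17 would have given its window 1.53 and 2.95 regions, so the ratios were 0.654 (0.0166 to 3.64) and 0.678 (0.0821 to 2.45). GC content was lower in the window (40.3%) than on the chromosome (42.7%), and within GC classes the expectation fell to 1.12 and 1.94, with ratios of 0.896 (0.0227 to 4.99) and 1.03 (0.125 to 3.72). The gene thus could not be told from its chromosome in either genotype, and a step from 1 to 2 regions is too small to set against the ratio of the lists.

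*Slc8a2* (ENSMUSG00000030376.6, chr7:16715509-16745858, plus strand), which encodes an exchanger of the brain, had no region in the control and 1 in *mdx* HRTΔIKKβ, with 0.327 and 0.622 expected in 55.35 kb. The region, chr7:16713699-16714199, was centred 1.56 kb upstream of the start, had 5.60 normalized tags (3.90 to 7.79) and a score of 37, and sat at the lowest fold that was called, 4. It contains the NF-κB match printed above.

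*Slc8a3* (ENSMUSG00000079055.2, chr12:82298902-82434167, minus strand) encodes an exchanger of brain and skeletal muscle. It had 2 regions in each library, against 0.84 expected in the control and 1.42 in *mdx* HRTΔIKKβ in 160.3 kb. In *mdx* IKKβf/f they lay in intron 2 (chr12:82366645-82367145, 5.53 normalized tags, score 33) and intron 6 (chr12:82303523-82304155, 8.12 normalized tags, score 41). In *mdx* HRTΔIKKβ they lay nearer the 5′ end, in intron 1 (chr12:82421115-82421615, 5.12 normalized tags, score 33) and intron 2 (chr12:82395813-82396313, 4.96 normalized tags, score 31). The centres in intron 2 were 29.2 kb apart.

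Compared with its paralogs, *Slc8a1* had fewer regions for its length, but within counting error. *Slc8a2* and *Slc8a3* together held 2 regions in the control and 3 in *mdx* HRTΔIKKβ in 215.6 kb, or 0.928 (0.112 to 3.35) and 1.39 (0.287 to 4.07) per 100 kb, intervals that overlap those of *Slc8a1*. Against their chromosomes the pair gave 1.71 (0.208 to 6.19) and 1.47 (0.303 to 4.30). Within GC classes their ratios were 1.23 (0.149 to 4.45) and 1.02 (0.211 to 2.99), beside 0.896 and 1.03 at *Slc8a1*, so that the order in *mdx* HRTΔIKKβ turned. The increase in *mdx* HRTΔIKKβ was 1 region at *Slc8a1* and 1 region at its paralogs.

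Over all 9 genes, *mdx* HRTΔIKKβ gave 57.6% (39.2 to 74.5) of the 33 regions, and the interval includes the 64.6% of the whole lists. When the *mdx* HRTΔIKKβ list was held to the same score relative to its expected tags as the *mdx* IKKβf/f list, which left it 13905 regions and 52.5% of all, 13 member regions remained against 14, or 48.1%. The cut was a score of 31.31, and member regions had whole-number scores. Regions with a score of 31 were therefore lost, and the cut was slightly stricter for *mdx* HRTΔIKKβ. Under that threshold *Atp2b2* had 9 *mdx* HRTΔIKKβ regions in place of 11, with a ratio to expected of 5.4, *Slc8a1* had 1 region in each library, *Slc8a3* kept 1 of its 2 *mdx* HRTΔIKKβ regions, and the single regions of *Atp2a1* and *Atp2b4* were lost. With 1 library per genotype and these counts, no difference between genotypes at these genes, beyond that of the lists, was detectable.

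Most of the regions lay in introns, which also make up most of these windows. In *mdx* IKKβf/f 12 of 14 lay in introns, 1 on an exon and 1 upstream, and in *mdx* HRTΔIKKβ 14 of 19 lay in introns and 5 upstream, the latter at *Atp2a1*, *Atp2a3*, *Atp2b2*, *Slc8a1* and *Slc8a2*. Of the 9 genes, 1 in the control (*Atp2b2*) and 2 in *mdx* HRTΔIKKβ (*Slc8a2* and *Slc8a3*) had a region within 5 kb of an annotated start, or 11.1% and 22.2%, beside the 7.61% and 13.4% of all protein-coding genes given above. None of the 33 overlapped a region of the other library, which 3.18% of all *mdx* IKKβf/f and 1.74% of all *mdx* HRTΔIKKβ regions did. Outside *Atp2b2* the median score was 34 in the 4 *mdx* IKKβf/f regions, against 31 for the list, and 31.5 in the 8 *mdx* HRTΔIKKβ regions, against 32. Over all 14 and 19 member regions, median GC content was 49.0% and 50.8%, against 47.8% in both lists. Outside *Atp2b2* it was 46.8% and 52.1%.

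Genes that work with these transporters or encode related transporters were counted by the same rule. Of 23 such genes, 10 had a region in the control and 17 in *mdx* HRTΔIKKβ, or 43.5% and 73.9%, with 20 and 36 regions in all, beside 23.5% and 37.8% of all windows, which were not matched to them for length. The regulators *Pln* and *Sln*, which encode the inhibitors phospholamban and sarcolipin, had 0 and 1 region each in windows of 33.31 and 28.59 kb, and *Casq2*, which encodes the calcium buffer of the cardiac reticulum, had 0 and 2 in 85.1 kb. These genes were named after their counts were seen. *S100a1* and *Nptn* went the other way, with 1 *mdx* IKKβf/f region each and 0 in *mdx* HRTΔIKKβ. The counts were highest at long genes: *Slc24a3*, a potassium-dependent sodium-calcium exchanger, had 6 and 7 regions in 499.4 kb, *Ank2*, an ankyrin that anchors NCX1, had 5 and 3 in 512.4 kb, and *Slc24a2*, a relative of *Slc24a3*, had 1 and 6 in 272.4 kb. *Calr*, *Fxyd1*, *Hrc* and *Slc8b1* had none in either library.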

How the data were processed

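H3K27ac chromatin immunoprecipitation was sequenced (paired ends) from whole hearts of both genotypes, 1 library each. Per the file headers and processing notes, the authors called regions against input with HOMER in its histone mode on Bowtie2 alignments to mm9 (versions not given in the sources used here). The deposited coverage values are normalized tags per 10000000, a signal. The deposited peak score was read as tags in the highest window of a region, the deposited ratio is the fold over input (at least 4 required) and the deposited p-value that over input. The clonal fold column was not used. Here, tags were recovered as normalized tags times the total divided by 10000000, and regions were assigned by their centre to GENCODE vM1 gene windows, with exons and introns numbered on the longest transcript. Expected counts were the chromosome's regions per sequenced base times the window's sequenced bases, or the same within GC classes of 5 points over 500 bp tiles. Code (Python 3.11.15, pandas 2.3.3, SciPy 1.17.1, pysam 0.24.0) passed 14 of 14 checks on simulated regions. The members, gene lists and comparisons were chosen with earlier results of these data known. Genes named were all 9 members and, of the list of partner and related transporter genes, the 3 with most regions. Others were named after their values were seen. Windows of 10 and 50 kb upstream, gene bodies alone, stricter fold and score, merging and an equal relative threshold were tried as alternatives.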

Additional observations from a re-analysis of the deposited data

How the results depend on the processing

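Of the main counts, shares and ratios over the 9 genes, 52 values under the alternatives stayed within 1.5 times the reported count or inside the reported interval, and 17 did not. The 52 include the *mdx* IKKβf/f ratio of 2.16, which within GC classes fell to 1.44. That value lay inside the reported interval, but its own interval includes 1. With gene bodies alone, 4 genes had an *mdx* HRTΔIKKβ region in place of 7. At 8-fold over input the lists kept 1868 and 4768 regions, 71.9% of them from *mdx* HRTΔIKKβ. In the windows 1 *mdx* IKKβf/f region in 1 gene (*Atp2b1*, ratio to expected 1.06) and 3 *mdx* HRTΔIKKβ regions in 1 gene were left, 75.0% of them from *mdx* HRTΔIKKβ. At 1.5 times the lowest peak score (143 and 463 regions), 1 region in 1 gene (16.3) and 2 in 1 gene (7.09) were left. Without *Atp2b2*, chosen after seeing the data, 4 (0.804) and 8 (0.875) regions were left. Both stricter lists hold fewer regions, and the causes were not otherwise tested. No paired analysis was possible because there was 1 library per genotype and no replicate number. Counts of 0 to 2 regions per gene allow up to 7.22, so counting error limits every statement on those genes. The part of sequencing depth in these counts was not tested. The threshold also limits *Atp2b2*, which had 0 *mdx* IKKβf/f and 3 *mdx* HRTΔIKKβ regions at 8-fold, beside 14.9% and 20.7% of all regions.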
